A study of Rattus norvegicus with 23 samples.

Results

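The genes described here are 45 non-collagen matrix genes of the rat, which comprise elastic fibre and fibulin genes, adhesive and matricellular glycoproteins, small and large proteoglycans with a hyaluronan synthase, laminin chains with nidogens, and lysyl oxidases. They were chosen by gene symbol, and 42 of the 45 had a row among the 30452 genes of the count table. Tnxb, Ogn and Hspg2 were not analysed here. RNA was sequenced from 2 established rat kidney cell lines, NRK-52E, which the labels call epithelial, and NRK-49F, which the labels call fibroblast. After 24 h in serum-free medium, both lines spent 48 h in medium of pH 7.4 or in medium brought to pH 6.0 with HCl. There were 6 samples for NRK-52E at pH 7.4, 6 for NRK-52E at pH 6.0, 6 for NRK-49F at pH 7.4 and 5 for NRK-49F at pH 6.0, and no transgene, gene deletion or further agent is named for any of them. The labels put the samples in numbered sample groups, 1 and 3 for NRK-52E and 4 and 6 for NRK-49F, each of which holds both pH values.

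The extracellular matrix gives tissue its shape and stiffness. Elastin and fibrillin microfibrils form elastic fibres, fibronectin and the thrombospondins link cells to the matrix, small leucine-rich proteoglycans such as decorin and fibromodulin bind collagen fibrils, and lysyl oxidases crosslink collagen and elastin. Laminins are trimers of an alpha, a beta and a gamma chain that build the basement membrane under epithelia, and in the kidney a surplus of interstitial matrix made by fibroblasts is the hallmark of fibrosis.

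Total counts per sample were between 16412564 and 34250535. Levels are given as FPM, counts per 1000000 counts of the library size scaled by the TMM method, as mean ± SD over the 6 samples of a condition (5 for NRK-49F at pH 6.0), and they are compared between samples but not between genes, since no transcript lengths were used. A level of 3 counts, the limit below which a gene was treated as not detectable, was 0.0839 to 0.203 FPM, and this limit covers counting error only. The labels do not say that samples came from separate cultures, so the spread between them may be partly technical. Most epithelial markers were near 0 in NRK-52E. Of 8 epithelial markers with a row, Krt8 was at 499 ± 76.4 FPM (n = 6) in NRK-52E at pH 7.4 and at 839 ± 193 FPM (n = 6) in NRK-49F, whereas Epcam, Krt18, Cldn4, Cldn7, Esrp1 and Grhl2 had at most 3 counts in every NRK-52E sample and Cdh1 at most 12. Of 10 fibroblast markers, Pdgfra, Col1a1, Col1a2, Prrx1, Twist1 and Cdh2 were over 20 FPM in every NRK-49F sample, and Thy1 was at 0 in NRK-49F at pH 7.4. Of 9 fibroblast markers tested, 8 were higher in NRK-49F at both pH values, among them Pdgfrb, at 41.4 ± 2.54 FPM (n = 6) in NRK-52E and 84.6 ± 8.49 FPM (n = 6) in NRK-49F at pH 7.4. Col3a1 went the other way, with 6149 ± 1378 FPM (n = 6) in NRK-52E and 1212 ± 111 FPM (n = 6) in NRK-49F. A trace of NRK-49F RNA was estimated in 3 NRK-52E samples, replicates A021, A022 and A033, all at pH 7.4, and its expected share of the members is given below. The estimate used genes chosen for low counts in NRK-52E at pH 6.0, so it could not show a trace at that pH.

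At pH 6.0 most of the matrix genes of NRK-52E were lower, and fewer changed in NRK-49F. Of the 42 genes with a row, 39 passed the filter on low counts. In NRK-52E, 28 of them fell past the threshold, 1 rose and 10 did not pass (edgeR quasi-likelihood test, Benjamini-Hochberg adjusted p under 0.05 over 14777 genes). Of all genes tested, 36.6% fell and 24.7% rose. The median log2 fold change of the matrix genes was -1.60, against -0.12 over all genes. With the 6 genes that had at most 3 counts in every NRK-52E sample at pH 6.0 set to the smallest change their limit allows, the median was -1.23. In NRK-49F, 13 fell, 3 rose and 23 did not pass, where 14.4% of all genes fell and 14.5% rose. The median there was -0.34, against 0.00 over all genes. The change in NRK-52E was more negative than that in NRK-49F for 22 genes and more positive for 2, Sparc and Lox, in a test of the difference itself, in which 24.7% of all genes were more negative and 16.8% more positive. Without replicates A021, A022 and A033, 13 members were more negative, where 20.2% of all genes were, and with the estimated NRK-49F signal subtracted 13 were, where 23.5% of all genes were. Of these differences, those of Tgfbi, Lamc1, Lamb2, Loxl2, Nid1, Aspn, Fmod and Lum each lost their call when 1 or another sample was left out. In these bulk samples fewer cells and less RNA per cell cannot be told apart.

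Many of the matrix genes were at low levels in NRK-52E, so the counts were repeated for members at higher levels and under other settings. Among the 24 tested members whose NRK-52E mean was 5 FPM or more, 16 fell and 1 rose, where 34.8% of all genes at that level fell and 29.1% rose. Among 35 such members in NRK-49F, 10 fell and 3 rose, where 14.8% of all genes at that level fell and 16.3% rose. Without replicates A021, A022 and A033, 19 members fell in NRK-52E and 30.0% of all genes did. With the estimated NRK-49F signal subtracted from the NRK-52E counts, 24 members fell and 35.2% of all genes did. With the NRK-49F samples fitted on their own, 20 members fell and 4 rose in that line, where 16.8% of all genes fell and 16.4% rose. The 7 further falls were in Fbln5, Tgfbi, Thbs2, Tnc, Lum, Has2 and Nid1, and the further rise was in Lama4. With the sample group as a block, Has2, Lama1 and Nid1 were gained as calls in NRK-49F.

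**Figure D1:**
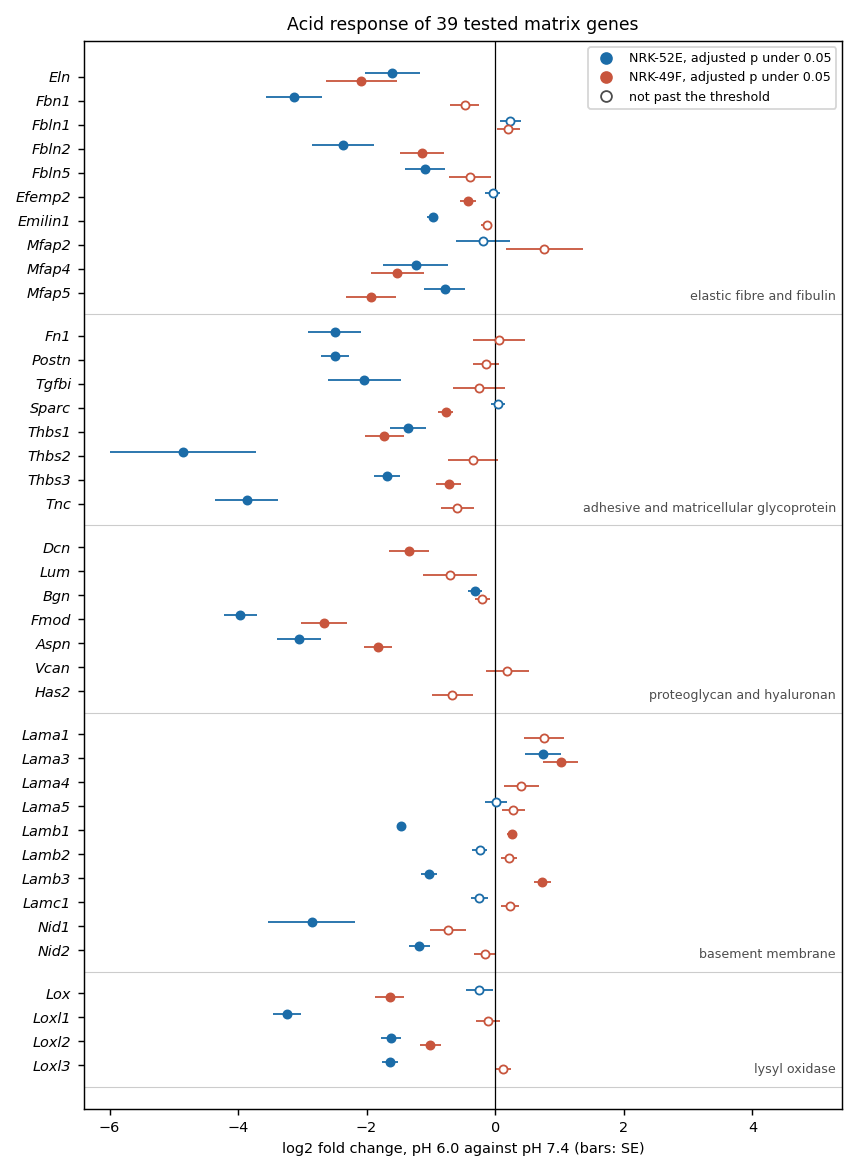
Log2 fold change from pH 7.4 to pH 6.0 (horizontal axis) of the 39 tested matrix genes, grouped by role, in NRK-52E (blue) and NRK-49F (red), with bars of 1 SE and filled points for genes past the threshold. Most blue points lie left of 0, Lama3 lies right of 0 in both lines, and Lamb1 and Lamb3 lie on opposite sides. NRK-52E values of Dcn, Lum, Vcan, Has2, Lama1 and Lama4, at or under 3 counts in every sample at pH 6.0, are not drawn.

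Called in both lines in the same direction were 10 genes. Of these, 9 fell (Eln, Fbln2, Mfap4, Mfap5, Thbs1, Thbs3, Fmod, Aspn and Loxl2) and Lama3 rose. Not all of the 9 shared falls held in other settings. In NRK-52E, Mfap4 and Mfap5 were not called without A021, A022 and A033. In NRK-49F, Eln was not called lower without A039 and A051. With the estimated NRK-52E signal subtracted from the NRK-49F counts, Eln, Mfap5 and Fmod were not called lower there. Lamb1 and Lamb3 fell in NRK-52E and rose in NRK-49F. A further 17 fell in NRK-52E without passing the test in NRK-49F, and 4 (Dcn, Efemp2, Sparc and Lox) fell in NRK-49F without passing it in NRK-52E. Of the 17, Tgfbi, Thbs2, Lum, Vcan, Has2, Lama4 and Nid1 were not called lower in NRK-52E without A021, A022 and A033. Also of the 17, Fbln5, Tgfbi, Thbs2, Tnc, Lum, Has2 and Nid1 were called lower in NRK-49F when that line was fitted alone. Fbln1, Lama1, Lama5, Lamb2, Lamc1 and Mfap2 passed in neither line in the fit of all samples. The share of all genes with each of these patterns was not counted, so whether the members differ from other genes here was not tested.

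Among the 12 elastic fibre and fibulin genes, Fbn2 and Efemp1 did not pass the filter on low counts. Of the 10 tested, 7 fell in NRK-52E and 5 in NRK-49F, where 36.6% and 14.4% of all genes fell. Of the 7, Mfap4 and Mfap5 were not called without A021, A022 and A033. Elastin, encoded by Eln (ENSRNOG00000001469, chromosome 12) and the core of the elastic fibre, was between 1011 and 1294 FPM in NRK-52E at pH 7.4 with a median of 1179. At pH 6.0 it was between 313 and 450.0 FPM with a median of 382. The ranges did not overlap, and the log2 fold change was -1.60 ± 0.43 (SE, adjusted p = 0.00250, edgeR, whereas DESeq2 gave Eln no adjusted p), with -1.41 in sample group 1 and -1.64 in sample group 3. In NRK-49F, Eln had a median of 3.68 FPM at pH 7.4 and a highest value of 29.4 FPM, in replicate A051, against 1.22, 1.28, 1.48, 2.45 and 3.08 FPM at pH 6.0. The ranges overlapped, and the log2 fold change of -2.08 ± 0.55 (adjusted p = 0.00630) rested on replicates A039 and A051, without which it was -0.52 (adjusted p = 0.230).

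Microfibril-associated protein 5, encoded by Mfap5, is a small glycoprotein bound to fibrillin microfibrils. In NRK-52E it ranged from 773 to 1502 FPM at pH 7.4 (median 978) and from 489 to 699 FPM at pH 6.0 (median 588), with no overlap and a log2 fold change of -0.79 ± 0.32 (adjusted p = 0.0353). The call ended when any 1 of A024, A033, A034, A035, A036 and A037 was left out (adjusted p up to 0.0865, edgeR). DESeq2 did not call it (adjusted p = 0.0796), and without replicates A021, A022 and A033 it was -0.94 (adjusted p = 0.0540, edgeR). Within sample groups 1 and 3 the log2 fold changes were -0.29 and -1.08. In NRK-49F its median was 12.05 FPM at pH 7.4, with 37.8 FPM in replicate A051, and the 5 values at pH 6.0 were 2.0, 3.41, 3.50, 5.23 and 5.96 FPM. The fall of -1.93 ± 0.39 (adjusted p = 0.000504) was -1.17 (adjusted p = 0.00607) without A039 and A051.

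Fibulins and EMILIN-1 help assemble elastic fibres. Fbln5, which tethers elastin to microfibrils, was at 265 ± 26.9 FPM in NRK-52E at pH 7.4 and 124 ± 85.3 FPM at pH 6.0 (n = 6 each), a log2 fold change of -1.09 ± 0.31 (adjusted p = 0.004004). The 3 pH 6.0 samples of sample group 3 were between 42.5 and 49.1 FPM and those of sample group 1 between 186 and 222 FPM, so that the change was -2.54 (adjusted p = 2.04e-07) in sample group 3 and -0.18 (adjusted p = 0.0642) in sample group 1. Emilin1 fell from 17.6 ± 2.15 to 8.97 ± 0.945 FPM in NRK-52E (log2 fold change -0.97 ± 0.09, adjusted p = 1.01e-09) and was at 496 ± 24.8 and 451 ± 30.8 FPM in NRK-49F (-0.14 ± 0.08, adjusted p = 0.239). The difference between the lines passed the test (-0.84, adjusted p = 5.31e-06). In A021, 36.7% of the Emilin1 level was expected from the NRK-49F signal, and with that signal subtracted the change was -0.81. Fbln2 fell in NRK-49F from 139 ± 23.3 to 62.9 ± 10.5 FPM with no overlap (-1.14 ± 0.34, adjusted p = 0.0128). Efemp2, which encodes fibulin-4, fell in NRK-49F from 720.2 ± 96.8 to 537 ± 73.1 FPM (-0.42 ± 0.12, adjusted p = 0.0111), and Fbln1 was between 27.7 and 67.6 FPM in all 23 samples without a call in the fit of all samples. Within sample groups 1 and 3 of NRK-52E, Fbln1 was called higher, by 0.31 (adjusted p = 0.0318, edgeR) and 0.32 (adjusted p = 0.0279, edgeR). Fbn1, Fbln2 and Mfap4 were under 6 FPM in every NRK-52E sample, where all 3 were called lower, Mfap4 not when any 1 of A022, A023, A024, A025, A026, A035 and A038 was left out (adjusted p up to 0.129), and Mfap2 was under 2 FPM in every sample and not called. In A021, 83.3% of the Fbn1 and 36.3% of the Fbln2 level was expected from the NRK-49F signal.

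Of 8 adhesive and matricellular glycoproteins with a row, 7 fell in NRK-52E and 3 in NRK-49F, where 36.6% and 14.4% of all genes fell. Of the 7, Tgfbi and Thbs2 were not called without A021, A022 and A033. Thbs1 (ENSRNOG00000045829, chromosome 3) encodes thrombospondin-1, a secreted glycoprotein known as an activator of latent TGF-beta. It was between 352 and 741 FPM in NRK-52E at pH 7.4 (median 551) and between 103 and 329 FPM at pH 6.0 (median 216). In NRK-49F it was between 4314 and 6633 FPM at pH 7.4 (median 5475) and at 1289, 1407, 1543, 1848 and 2268 FPM at pH 6.0. No pH 6.0 sample reached the lowest pH 7.4 sample in either line. The log2 fold changes were -1.36 ± 0.28 (adjusted p = 0.000200) and -1.73 ± 0.30 (adjusted p = 0.000112), with -1.002 and -1.88 in sample groups 1 and 3 and -1.75 and -1.68 in sample groups 4 and 6, and the difference of 0.37 ± 0.40 between the lines did not pass (adjusted p = 0.490). Thbs3, another thrombospondin, fell from 15.1 ± 6.10 to 4.66 ± 1.13 FPM in NRK-52E (-1.69 ± 0.20) and from 49.6 ± 2.45 to 30.0 ± 1.43 FPM in NRK-49F (-0.73 ± 0.20), and the difference of -0.96 passed (adjusted p = 0.00819).

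Postn encodes periostin, a matricellular protein of injured and remodelling tissue. Its lowest, median and highest values in NRK-52E were 52.5, 63.9 and 80.0 FPM at pH 7.4 and 8.68, 12.4 and 14.1 FPM at pH 6.0, without overlap. The log2 fold change was -2.49 ± 0.21 (adjusted p = 6.79e-10), and -2.44 and -2.37 within sample groups 1 and 3. In NRK-49F, Postn was at 229.7 ± 50.05 and 208 ± 79.2 FPM (-0.14 ± 0.21, adjusted p = 0.647), and the difference between the lines was -2.35 ± 0.29 (adjusted p = 9.06e-07). Sparc, a collagen-binding glycoprotein, differed the other way. It was at 4151 ± 752 and 4266 ± 279.8 FPM in NRK-52E (0.04 ± 0.11, adjusted p = 0.783) and fell from 1473 ± 78.9 to 864 ± 146 FPM in NRK-49F (-0.77 ± 0.12, adjusted p = 2.80e-05), with a difference of 0.81 ± 0.16 (adjusted p = 0.000350). Within sample group 1 of NRK-52E, Sparc was called higher (0.33, adjusted p = 0.00843, edgeR), and in sample group 3 it was not (-0.055, adjusted p = 0.766, edgeR).

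Fn1 (ENSRNOG00000014288, chromosome 9), encodes fibronectin, which links cells to collagen. In NRK-52E at pH 7.4 it ranged from 9.62 to 126 FPM with a median of 40.8, and at pH 6.0 from 4.88 to 12.6 FPM with a median of 7.99, so the ranges overlapped. The log2 fold change was -2.50 ± 0.42 (adjusted p = 1.59e-05). Replicate A021 held the highest value, of which 98.1% was expected from the estimated NRK-49F signal. Without replicates A021, A022 and A033 the change was -1.36 (adjusted p = 0.00242), and with the signal subtracted -0.99 (adjusted p = 0.0301). In NRK-49F, Fn1 ranged from 6194 to 10549 FPM at pH 7.4 and was at 5622, 7455, 8078, 11193 and 11606 FPM at pH 6.0, which overlap, with a log2 fold change of 0.06 ± 0.40 (adjusted p = 0.940). Tgfbi, Thbs2 and Tnc were at 753 ± 61.0, 321 ± 46.6 and 538 ± 71.6 FPM in NRK-49F at pH 7.4 and at 633 ± 48.3, 253 ± 29.9 and 357 ± 73.7 FPM at pH 6.0, with no call.

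Of 7 proteoglycan and hyaluronan genes with a row, 6 fell in NRK-52E and 3 in NRK-49F, where 36.6% and 14.4% of all genes fell. Of the 6, Lum, Vcan and Has2 were not called without A021, A022 and A033. Fmod (ENSRNOG00000003183, chromosome 13) encodes fibromodulin, a small leucine-rich proteoglycan that binds collagen fibrils. In NRK-52E the lowest, median and highest levels were 290.2, 392 and 469 FPM at pH 7.4 and 17.1, 25.3 and 29.0 FPM at pH 6.0. This was a 15.6-fold difference of the means, a log2 fold change of -3.97 ± 0.25 (adjusted p = 5.22e-12), with -3.65 and -4.07 within sample groups 1 and 3. In NRK-49F it was far lower, between 2.05 and 9.77 FPM at pH 7.4 (median 3.62) and at 0.389, 0.561, 0.705, 1.05 and 1.10 FPM at pH 6.0, again without overlap (-2.67 ± 0.35, adjusted p = 3.50e-06). Without replicates A039 and A051, which held the 2 highest values, the change in NRK-49F was -2.05.

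Aspn encodes asporin, a relative of decorin. In NRK-49F it was between 212 and 244 FPM at pH 7.4 (median 219.9) and at 47.0, 61.9, 63.4, 68.6 and 76.4 FPM at pH 6.0. All pH 6.0 samples were below all pH 7.4 samples, and the log2 fold change was -1.82 ± 0.22 (adjusted p = 9.90e-07), with -1.97 and -1.77 within sample groups 4 and 6. In NRK-52E, Aspn was at 2.91 ± 1.19 and 0.324 ± 0.262 FPM (-3.05 ± 0.35, adjusted p = 6.88e-08) and remained called without A021, A022 and A033 (-2.62). Bgn, which encodes biglycan, fell by 0.32 on the log2 scale in NRK-52E (1256 ± 136 to 1009 ± 145 FPM, adjusted p = 0.0170), with -0.46 in sample group 1 and -0.03 in sample group 3, and the pH ranges overlapped. Dcn, which encodes decorin, had 0 counts in all 12 NRK-52E samples and went from 4.00 ± 1.46 to 1.57 ± 0.385 FPM in NRK-49F (-1.34 ± 0.31, adjusted p = 0.00507).

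Vcan and Lum, the genes of versican and lumican, and Has2, a hyaluronan synthase, were NRK-49F genes. Vcan was at 352 ± 62.6 and 402 ± 81.6 FPM there, Lum at 99.2 ± 32.5 and 61.0 ± 13.4 FPM and Has2 at 17.4 ± 3.15 and 10.9 ± 2.58 FPM at pH 7.4 and pH 6.0, with no call. Within each sample group the pH ranges of Lum and of Has2 were apart, with pH 6.0 lower. In sample groups 4 and 6 the change of Lum was -0.79 (adjusted p = 0.0267) and -0.45 (adjusted p = 0.0666), and that of Has2 -0.91 (adjusted p = 0.0679) and -0.60 (adjusted p = 0.0219). In NRK-52E at pH 6.0 they had at most 1 count in any sample. The mean at pH 7.4 was at least 6.09-fold higher for Vcan and at least 3.72-fold higher for Lum than the mean level of 3 counts per library, and for Has2 no fold is given because both pH values lay under that level on average. In the pH 7.4 samples other than A021, A022 and A033, Vcan had at most 1 count, and Lum and Has2 had 0.

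Of 10 basement membrane genes tested, 5 fell and 1 rose in NRK-52E, where 36.6% of all genes fell and 24.7% rose. In NRK-49F 3 rose, where 14.5% of all genes did. Lamb1 and Lamb3 were called in opposite directions. Of the 5 falls, those of Lama4 and Nid1 were not called without A021, A022 and A033, and the rise, of Lama3, was lost when any 1 of 5 samples was left out. Nid1, which encodes nidogen-1, was in NRK-49F at 102 ± 16.9 and 61.8 ± 15.8 FPM, apart but with an adjusted p of 0.0527 (log2 fold change -0.73 ± 0.28). In the test of the difference, 7 of the 10 were more negative in NRK-52E, where 24.7% of all genes were. Hspg2 was not analysed here, and Lama2 did not pass the filter.

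Lamb1 (ENSRNOG00000005678, chromosome 6) encodes the laminin beta-1 chain, which many tissues use. It was between 454 and 563 FPM in NRK-52E at pH 7.4 (median 496) and between 162 and 207 FPM at pH 6.0 (median 182). In NRK-49F it was between 360.4 and 389 FPM at pH 7.4 (median 375) and at 403, 434, 446, 458 and 493 FPM at pH 6.0. Neither pair of ranges overlapped, with NRK-52E lower and NRK-49F higher at pH 6.0. The log2 fold changes were -1.46 ± 0.08 (adjusted p = 1.74e-13) and 0.25 ± 0.08 (adjusted p = 0.0159), and the difference was -1.71 ± 0.11 (adjusted p = 2.90e-11). Within sample groups 1 and 3 the change was -1.43 and -1.34. The rise in NRK-49F was 0.20 (adjusted p = 0.444) in sample group 4 and 0.27 (adjusted p = 0.1002) in sample group 6, and had an adjusted p of 0.0530 without A039 and A051.

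Lamb3 (ENSRNOG00000006025, chromosome 13) encodes the laminin beta-3 chain, which serves the anchoring of epithelia. It had a lowest, median and highest level of 39.8, 48.3 and 57.8 FPM in NRK-52E at pH 7.4 and of 19.3, 25.2 and 26.6 FPM at pH 6.0. In NRK-49F it had 34.6, 46.9 and 61.7 FPM at pH 7.4 and 68.0, 68.7, 70.5, 82.2 and 98.9 FPM at pH 6.0. As for Lamb1, the pH ranges were apart in both lines and in opposite directions, with log2 fold changes of -1.03 ± 0.13 (adjusted p = 2.87e-07) and 0.73 ± 0.13 (adjusted p = 0.000180) and a difference of -1.76 ± 0.18 (adjusted p = 7.97e-08). The values were -0.92 and -0.98 within sample groups 1 and 3 and 0.74 within each of sample groups 4 and 6.

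Lama3 (ENSRNOG00000011300, chromosome 18) was the only member that rose in both lines. In NRK-49F it was between 41.2 and 61.0 FPM at pH 7.4 (median 50.6) and at 87.0, 90.6, 108, 118 and 120.4 FPM at pH 6.0, all above the pH 7.4 samples (log2 fold change 1.02 ± 0.27, adjusted p = 0.00586). In NRK-52E it was lower, between 2.26 and 9.85 FPM at pH 7.4 (median 5.61) and between 7.45 and 13.9 FPM at pH 6.0 (median 9.18), with overlap (0.74 ± 0.28, adjusted p = 0.0257). Leaving out any 1 of replicates A024, A025, A033, A034 and A035 ended this call, with an adjusted p between 0.0508 and 0.0678 (edgeR). The pH 7.4 samples differed by sample group, with 8.13 to 9.85 FPM in sample group 1 and 2.26 to 3.09 FPM in sample group 3, and the change was 0.40 (adjusted p = 0.0706) in sample group 1 and 1.78 (adjusted p = 7.55e-05) in sample group 3.

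Lama5, Lamb2 and Lamc1 were over 200 FPM in every sample of both lines and were not called in either. Lama5 was at 1252 ± 229 and 1258 ± 236 FPM in NRK-52E, Lamb2 at 1932 ± 163 and 1634 ± 253 FPM and Lamc1 at 689 ± 107 and 579 ± 74.8 FPM. Nid2, which encodes nidogen-2, a linker of laminin and collagen networks, fell from 54.3 ± 15.5 to 24.0 ± 3.92 FPM in NRK-52E (-1.18 ± 0.17, adjusted p = 2.18e-06) and was at 122 ± 19.8 and 109.6 ± 25.1 FPM in NRK-49F (-0.16 ± 0.17, adjusted p = 0.528). Lama4 was at 39.03 ± 2.36 and 51.8 ± 6.75 FPM in NRK-49F (0.41 ± 0.28, adjusted p = 0.301), where all pH 6.0 samples were above all pH 7.4 samples, and at 0 counts in every NRK-52E sample except A021 and A033.

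**Figure D2:**
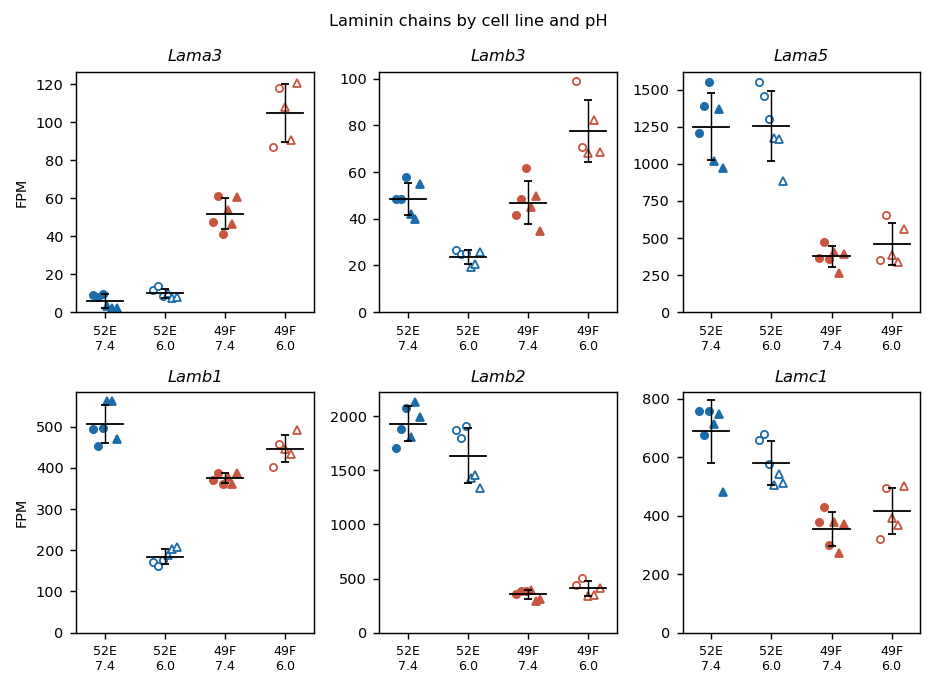
FPM (vertical axis, from 0) of the laminin chain genes Lama3, Lamb3, Lama5, Lamb1, Lamb2 and Lamc1 in each sample, by cell line (52E, 49F) and pH, with the mean and SD. Circles are sample groups 1 and 4 and triangles sample groups 3 and 6. Lamb1 and Lamb3 are lower at pH 6.0 in NRK-52E and higher at pH 6.0 in NRK-49F, and Lama3 is highest in NRK-49F at pH 6.0.

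The lysyl oxidases, copper enzymes that start the crosslinking of collagen and elastin, gave different members in the 2 lines. Lox (ENSRNOG00000014426, chromosome 18) was between 159 and 289 FPM in NRK-49F at pH 7.4 (median 229) and at 45.05, 55.7, 76.5, 85.9 and 91.3 FPM at pH 6.0, without overlap. In NRK-52E it was between 43.9 and 132 FPM at pH 7.4 (median 104) and between 64.3 and 89.8 FPM at pH 6.0 (median 84.8), with overlap. The log2 fold change was -1.64 ± 0.23 (adjusted p = 6.41e-06) in NRK-49F and -0.25 ± 0.21 (adjusted p = 0.309) in NRK-52E, and the difference of 1.39 ± 0.31 passed the test (adjusted p = 0.000774). Within sample groups 4 and 6 the change was -1.86 and -1.48.

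Loxl1, the member known for elastic fibre upkeep, fell in NRK-52E past the threshold. Its lowest, median and highest levels there were 10.6, 21.8 and 35.7 FPM at pH 7.4 and 1.86, 2.27 and 2.89 FPM at pH 6.0, without overlap (-3.24 ± 0.22, adjusted p = 1.11e-11). The change was -2.61 in sample group 1 and -3.55 in sample group 3. In A021, 47.5% of the Loxl1 level was expected from the NRK-49F signal, and with that signal subtracted the change was -3.09. In NRK-49F, Loxl1 was at 596 ± 25.8 and 553 ± 60.9 FPM (-0.11 ± 0.19, adjusted p = 0.718), and the difference between the lines was -3.14 ± 0.28 (adjusted p = 9.29e-09). Loxl3 likewise fell in NRK-52E from 52.2 ± 8.10 to 16.7 ± 4.02 FPM (-1.64 ± 0.13, adjusted p = 9.08e-11) and was at 166 ± 11.1 and 179.8 ± 6.11 FPM in NRK-49F (0.12 ± 0.12, adjusted p = 0.525). Loxl2 fell in both, from 126 ± 17.9 to 41.2 ± 11.1 FPM (-1.62 ± 0.16) and from 209 ± 25.2 to 104 ± 20.8 FPM (-1.01 ± 0.16), without overlap in either line.

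**Figure D3:**
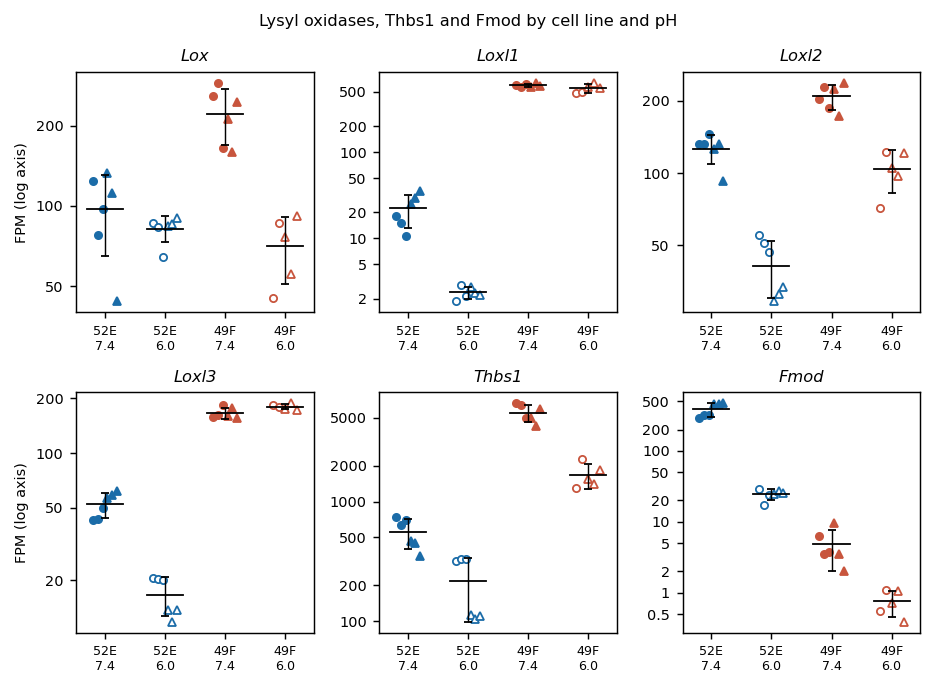
FPM (vertical log axis) of Lox, Loxl1, Loxl2, Loxl3, Thbs1 and Fmod in each sample, by cell line (52E, 49F) and pH, with the mean and SD. Circles are sample groups 1 and 4 and triangles sample groups 3 and 6. Loxl2, Thbs1 and Fmod are lower at pH 6.0 in both lines, Lox is apart only in NRK-49F, and Loxl1 and Loxl3 are apart only in NRK-52E.

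The lines themselves used different matrix genes. At pH 7.4, 27 of the 39 tested members were higher in NRK-49F and 9 were lower, where 33.9% of all genes were higher and 35% lower. At pH 6.0, 28 were higher and 8 lower, where 38.9% of all genes were higher and 36.6% lower. Vcan, Thbs2 and Tgfbi stood highest in NRK-49F relative to NRK-52E at pH 7.4 among members of at least 5 FPM in the higher line, with log2 fold changes of 8.44 ± 0.48, 7.96 ± 0.54 and 7.78 ± 0.54. The expected NRK-49F signal was 148%, 110.2% and 88.7% of their NRK-52E means at pH 7.4, and in the 3 samples without it they were at 0.0182, 0.0727 and 0.683 FPM. The size of these values therefore depends on A021, A022 and A033, without which they were 13.98, 12.16 and 10.02, in the same order. In the pH 7.4 samples of NRK-52E that remained, Vcan had at most 1 count and Thbs2 at most 4. Their fitted values there are no measure of size. Eln, Fmod and Mfap5 stood lowest, with log2 fold changes of -7.15 ± 0.56, -6.3 ± 0.29 and -6.04 ± 0.40. Without A039 and A051 these were -8.71, -6.91 and -6.79. In NRK-52E the other members that were higher at pH 7.4 were Mfap2, Sparc, Lama5, Lamb1, Lamb2 and Lamc1. Lamb1 turned from lower in NRK-49F at pH 7.4 (-0.44 ± 0.07) to higher at pH 6.0 (1.28 ± 0.08). Lamb3 was not called between the lines at pH 7.4 (-0.05 ± 0.13, adjusted p = 0.740) and was higher in NRK-49F at pH 6.0 (1.71 ± 0.13), and Lox was higher in NRK-49F at pH 7.4 (1.18 ± 0.21) and not called at pH 6.0 (-0.21 ± 0.22, adjusted p = 0.385). All of these comparisons share samples with the acid responses.

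**Figure D4:**
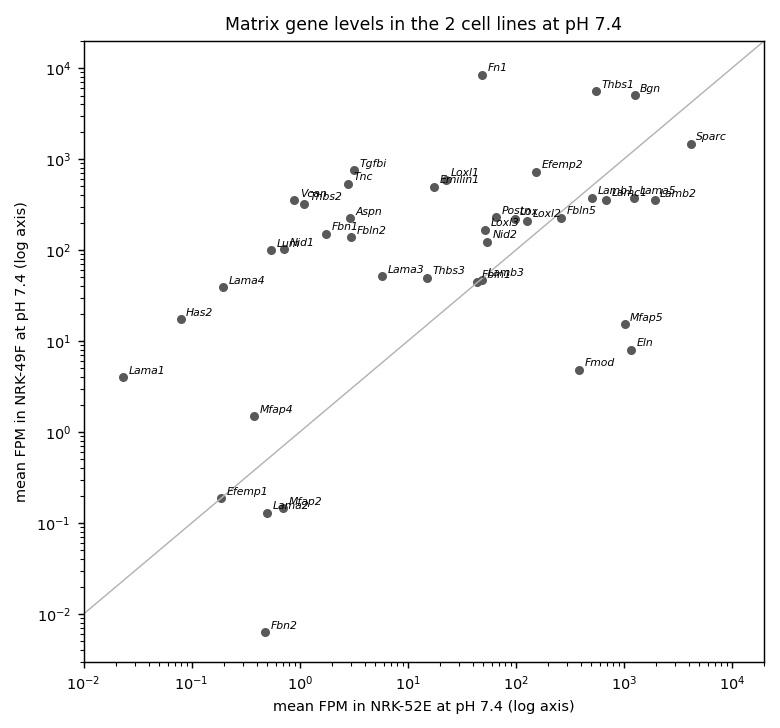
Mean FPM at pH 7.4 in NRK-52E (horizontal log axis, n = 6) and NRK-49F (vertical log axis, n = 6) of 41 matrix genes, with a grey line of equal level. Dcn, at 0 in NRK-52E, is not drawn. Eln, Mfap5 and Fmod lie far below the line, and Vcan, Thbs2, Tgfbi and Fn1 far above it.

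Low levels in NRK-52E were set against the estimated NRK-49F signal. That signal was the median share of the NRK-49F level over 21 genes that are not matrix genes, are over 50 FPM in NRK-49F and have at most 3 counts in every NRK-52E sample at pH 6.0. It was 1.46% in A021, 0.468% in A022 and 0.323% in A033, and 0 in the other 3 pH 7.4 samples. It was also 0 in the 6 pH 6.0 samples. The choice of genes kept it near 0 there, so a signal at pH 6.0 could not have been found. For 10 of the members with a count in NRK-52E (Fn1, Tgfbi, Thbs2, Tnc, Lum, Vcan, Has2, Lama1, Lama4 and Nid1) the expected level was over 50% of the NRK-52E mean at pH 7.4, for 4 (Fbn1, Fbln2, Emilin1 and Aspn) it was between 10% and 50%, and for 27 under 10%. In A021, Tgfbi was at 10.7 FPM with 11.0 FPM expected, Thbs2 at 4.62 with 4.68 expected, Tnc at 6.86 with 7.84 expected and Vcan at 2.74 with 5.13 expected. In the 3 pH 7.4 samples without estimated signal, Tgfbi was at 0.683 ± 0.359 FPM, near the 0.820 ± 0.635 FPM (n = 6) of pH 6.0, and Thbs2 was at 0.0727 ± 0.126 FPM with at most 4 counts. Tnc (1.39 ± 0.475 FPM) and Fn1 (22.1 ± 15.8 FPM) were above their pH 6.0 means of 0.198 and 8.66 FPM in those samples.

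The fall of Tgfbi in NRK-52E (log2 fold change -2.03, adjusted p = 0.00361) was 0.20 without A021, A022 and A033 and 1.04 with the signal subtracted, neither past the threshold. Leaving out A021 alone ended the calls of Tgfbi (adjusted p = 0.0600) and Has2 (adjusted p = 0.271) in NRK-52E. Thbs2, Vcan, Lum, Has2, Lama4 and Nid1 were called lower in NRK-52E as deposited and were not called without those samples. Tnc, Fbn1, Fbln2 and Aspn stayed called lower both ways, with -2.77 and -2.13 for Tnc and -2.63 and -2.49 for Fbn1. Of 9 fibroblast markers tested, 8 were also lower in NRK-52E and 3 in NRK-49F at pH 6.0, where 36.6% and 14.4% of all genes were. In NRK-52E all 10 fibroblast markers had a summed level of 4906 to 8105 FPM at pH 7.4 and 1833 to 3112 FPM at pH 6.0, and Thy1 was at 0. Most of this sum at pH 7.4 was Col3a1, the marker that was higher in NRK-52E than in NRK-49F. In NRK-49F the sum was 10494 to 13479 FPM at pH 7.4 and 7200 to 9717 FPM at pH 6.0. The sum of the 8 epithelial markers with a row was also lower at pH 6.0 in NRK-52E. It was 441 to 651 FPM at pH 7.4 and 196 to 260 FPM at pH 6.0 there. The part of these markers in the matrix changes was not tested.

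**Figure D5:**
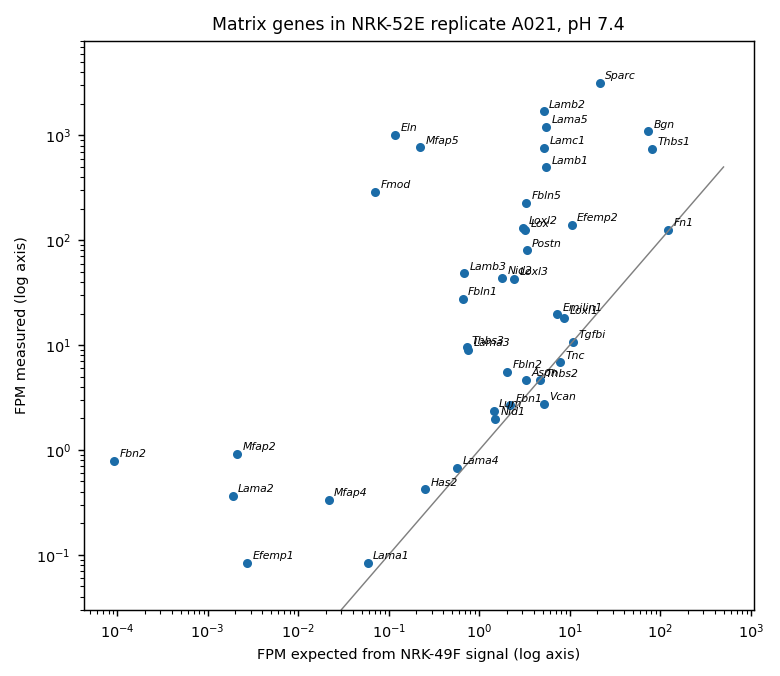
FPM measured in NRK-52E replicate A021 (vertical log axis) against FPM expected there from the estimated NRK-49F signal (horizontal log axis) for each matrix gene with a count in that sample, with a line of equality. Fn1, Tgfbi, Tnc, Thbs2 and Lama4 lie near the line, and Eln, Mfap5, Fmod and the laminin chains Lama5, Lamb1, Lamb2 and Lamc1 far above it.

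The same question was asked of NRK-49F. Over 24 genes high in NRK-52E, the share of the NRK-52E level was 5.26% in A051 and 1.24% in A039, both at pH 7.4, and between 0.0533% and 0.579% in the other 9 samples. These 24 genes were chosen as under 1% of the NRK-52E level in every NRK-49F sample at pH 6.0. A larger share at pH 6.0 could therefore not have been found. Eln, Mfap5 and Fmod, the members far higher in NRK-52E, had their 2 highest NRK-49F values in A051 and A039. The expected levels were above the measured ones in A051 (61.3 against 29.4 FPM for Eln), and for Mfap5 and Fmod likewise. Without A039 and A051, 12 members fell in NRK-49F, where 10.2% of all genes did. With the NRK-52E signal subtracted, 11 fell, where 13.6% of all genes did, Mfap5 (adjusted p = 0.184) and Fmod (adjusted p = 0.0954) were no longer called, and Eln was 3.60 higher at pH 6.0 (adjusted p = 4.31e-05), a fit in which the level subtracted was above the measured one in 5 of the 6 pH 7.4 samples.

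Other matrix genes, 86 from related families of which 70 were tested, were counted beside the members, and their lists were chosen with results known. In NRK-52E 39 fell and 14 rose (median log2 fold change -0.81), and in NRK-49F 20 fell and 12 rose (median -0.25). Of all genes, 36.6% fell and 24.7% rose in NRK-52E, and 14.4% fell and 14.5% rose in NRK-49F. In NRK-52E the largest falls of each family were those of Ltbp3, a latent TGF-beta binding protein (-1.48 ± 0.20), of Tnr, tenascin-R (-4.75 ± 0.41, from 9.77 ± 1.85 to 0.367 ± 0.312 FPM), of the proteoglycan gene Prelp (-3.57 ± 0.32), of Frem2, at 1.02 ± 0.493 FPM at pH 7.4 and at most 3 counts at pH 6.0, and of the heparan sulphate sulphatase gene Sulf1 (-1.39 ± 0.14). The largest rises were in Adamtsl2, with 0.0343 ± 0.0672 and 2.82 ± 2.26 FPM, Spon1 (1.14 ± 0.39, not called without A021, A022 and A033), Hapln3 (2.84 ± 0.21, from 1.95 ± 0.895 to 14.2 ± 2.13 FPM), Lamc3 (1.59 ± 0.44) and P4ha1, a subunit of the collagen prolyl hydroxylase (1.07 ± 0.08, from 263 ± 19.5 to 552 ± 83.7 FPM). Levels of Spon1 and Lamc3 were low, with means of 0.565 and 0.225 FPM at pH 7.4 and 1.24 and 0.725 FPM at pH 6.0. In NRK-49F the falls were led by Ltbp4 (-1.05 ± 0.13), Abi3bp (-2.89 ± 0.43), Omd (-2.64 ± 0.34), Npnt (-2.89 ± 0.79) and Sulf1 (-1.11 ± 0.15). Npnt was at 29.7 FPM in A051 and at most 3.85 FPM in the other NRK-49F samples, and its fall was not called without A051 (-1.22, adjusted p = 0.0705). The rises in NRK-49F were led by Smoc2 (2.23 ± 0.30), the hyaluronan receptor gene Cd44 (1.07 ± 0.23, from 153 ± 11.3 to 322 ± 20.6 FPM), Hmcn1 (1.65 ± 0.51) and the transglutaminase gene Tgm2 (1.74 ± 0.26). Hmcn1 had means of only 0.140 FPM at pH 7.4 and 0.478 FPM at pH 6.0, with at most 8 and 14 counts in a sample.

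RefSeq promoters of the GRCr8 build were found for 29 of the 42 genes with a row. Shown are the 250 bases before the start, on the strand of the gene, of 2 genes that fell in both lines, Thbs1 at chr3:125510000-125510249 and Fmod at chr13:48045317-48045566, and of the 2 genes that went opposite ways, Lamb1 at chr6:53562846-53563095 and Lamb3 at chr13:107362303-107362552, all on the + strand. Capitals mark a match to the TEAD motif GGAATG, the AP-1 motif TGANTCA or the TATA box TATAAA. All 3 were searched on both strands of this window of 250 bases before the start.
Thbs1: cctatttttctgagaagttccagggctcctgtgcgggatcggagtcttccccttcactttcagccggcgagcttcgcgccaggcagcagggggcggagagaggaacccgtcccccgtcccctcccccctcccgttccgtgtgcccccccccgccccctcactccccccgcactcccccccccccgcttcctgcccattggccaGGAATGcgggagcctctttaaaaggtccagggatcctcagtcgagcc
Fmod: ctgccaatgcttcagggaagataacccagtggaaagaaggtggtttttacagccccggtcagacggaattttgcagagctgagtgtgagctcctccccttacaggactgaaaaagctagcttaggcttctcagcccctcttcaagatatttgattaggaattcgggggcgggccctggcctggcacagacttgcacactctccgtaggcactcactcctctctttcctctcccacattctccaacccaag
Lamb1: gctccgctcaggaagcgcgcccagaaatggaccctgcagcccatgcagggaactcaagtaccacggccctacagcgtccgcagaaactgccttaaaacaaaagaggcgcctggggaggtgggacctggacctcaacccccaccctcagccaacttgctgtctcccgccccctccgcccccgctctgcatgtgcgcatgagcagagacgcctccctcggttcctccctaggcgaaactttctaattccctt
Lamb3: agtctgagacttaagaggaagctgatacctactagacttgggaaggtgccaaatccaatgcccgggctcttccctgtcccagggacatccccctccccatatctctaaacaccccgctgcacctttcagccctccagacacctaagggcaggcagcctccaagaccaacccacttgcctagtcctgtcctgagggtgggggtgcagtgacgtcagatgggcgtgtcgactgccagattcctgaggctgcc
The Thbs1 promoter held 1 TEAD match and the other 3 held no match to any of these motifs. Over all 33469 promoters the TEAD motif was found in 12.1%, the AP-1 motif in 6.34% and the TATA box in 12.9%. Among the 29 members with a promoter, 7 held the TEAD motif, 2 the AP-1 motif, and 3 the TATA box. The Lama3 promoter held 3 AP-1 matches. These matches describe letters in the window and no binding was measured.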

How the data were processed

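RNA-seq counts of 23 samples of the rat lines NRK-52E and NRK-49F at pH 7.4 and pH 6.0 were used. The authors made the deposited raw counts by mapping read pairs of poly(A) RNA with HISAT2 2.1.0 and counting them on Ensembl exons with featureCounts, multi-mapping reads included. The strand setting is not given in the sources used here, so overlapping and antisense genes cannot be told apart, and the study's methods name the genome rn7 where the submitters' processing notes name rn6. A further 13 columns of per-sample values could not be matched to a label and were not used. Members and lists were chosen with earlier results of these data known.

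The labels gave the line and pH of each sample. The analysis used edgeR 4.0.16 in R 4.3.3. Low genes were removed by filterByExpr (minimum count 10, minimum total 15), libraries were scaled by TMM, and 1 model with 4 conditions was fitted to all 23 samples. Changes were tested by the quasi-likelihood test with Benjamini-Hochberg adjustment over 14777 genes, threshold 0.05, which every adjusted p in the text refers to. The SE of a log2 fold change was taken from its size and the F statistic (size over the root of F). Total counts were 16412564 to 34250535 per sample. The analysis was tested on simulated data. Alternatives were DESeq2 1.42.0, other scalings, no filter, a test against a log2 fold change of 1, the sample group as a block or alone, each line fitted alone, samples left out and subtracted carry-over.

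All 45 members are accounted for. Full values are given, in each acid response, for the 3 largest rises and falls among called members with a mean of at least 5 FPM in that line, for members called in opposite directions, for the 3 largest differences each way between lines at pH 7.4, and for Fn1 and Lox. Of further matrix genes the largest rise and fall of each list are given. Values of other members given in full were chosen after they were seen. Of 55 replicate pairs none agreed within sampling noise (lowest chi-square per degree of freedom 5.63).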

Additional observations from a re-analysis of the deposited data

Results flagged for a closer look

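In 17 of the 161 sets of samples of 1 matrix gene in 1 condition that were compared, 1 sample stood apart from the others by Dixon's criterion at the 95% level, where chance gives about 1 in 20. In 3 of the 17 no sample had over 3 counts, so that the criterion says nothing there, and without such sets it was 14 of 154. For Efemp2, Has2, Lum, 1 sample of NRK-52E was high at pH 7.4. Efemp2 was at 196 FPM in replicate A035 with the next value at 154 FPM. Has2 was at 0.420 FPM in replicate A021 with the next value at 0.0538 FPM. Lum was at 2.35 FPM in replicate A021 with the next value at 0.6996 FPM. For Tgfbi and Thbs2, 1 sample of NRK-52E was high at pH 7.4. Tgfbi was at 10.7 FPM in replicate A021 with the next value at 3.61 FPM. Thbs2 was at 4.62 FPM in replicate A021 with the next value at 1.08 FPM. For Lamc1, 1 sample of NRK-52E was low at pH 7.4. Lamc1 was at 480.1 FPM in replicate A035 with the next value at 676 FPM. For Efemp1, Thbs2, Tnc, 1 sample of NRK-52E was high at pH 6.0. Efemp1 was at 0.157 FPM in replicate A036 with the next value at 0.0546 FPM. Thbs2 was at 0.212 FPM in replicate A024 with the next value at 0.0291 FPM. Tnc was at 0.441 FPM in replicate A037 with the next value at 0.197 FPM. For Vcan, 1 sample of NRK-52E was high at pH 6.0. Vcan was at 0.0291 FPM in replicate A026 with the next value at 0 FPM. For Emilin1 and Lox, 1 sample of NRK-52E was low at pH 6.0. Emilin1 was at 7.12 FPM in replicate A024 with the next value at 9.03 FPM. Lox was at 64.3 FPM in replicate A026 with the next value at 83.5 FPM. For Eln and Fbn2, 1 sample of NRK-49F was high at pH 7.4. Eln was at 29.4 FPM in replicate A051 with the next value at 8.15 FPM. Fbn2 was at 0.0379 FPM in replicate A051 with the next value at 0 FPM. For Thbs2, 1 sample of NRK-49F was high at pH 6.0. Thbs2 was at 305 FPM in replicate A043 with the next value at 251 FPM. For Mfap2 and Nid1, 1 sample of NRK-49F was low at pH 6.0. Mfap2 was at 0.102 FPM in replicate A042 with the next value at 0.253 FPM. Nid1 was at 34.6 FPM in replicate A042 with the next value at 62.4 FPM. Of the samples at pH 7.4 with estimated signal of the other line, A021 held 4 of these values and A051 held 2.

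The acid response differed between the lines for 24 members in the test of the difference (edgeR quasi-likelihood test, log2 fold change in NRK-52E minus that in NRK-49F). It was more positive in NRK-52E for Sparc (0.81) and Lox (1.39). It was more negative for Fbn1 (-2.66), Emilin1 (-0.84), Fn1 (-2.55), Postn (-2.35), Tgfbi (-1.78), Thbs2 (-4.52), Thbs3 (-0.96) and Tnc (-3.28). So it was for Lum (-6.22), Fmod (-1.30), Aspn (-1.23), Vcan (-6.45), Lama4 (-5.88), Lamb1 (-1.71), Lamb2 (-0.45) and Lamb3 (-1.76). So it was for Lamc1 (-0.47), Nid1 (-2.13), Nid2 (-1.02), Loxl1 (-3.14), Loxl2 (-0.61) and Loxl3 (-1.76). For Fn1, Tgfbi, Thbs2, Tnc, Lum, Vcan, Lama4 and Nid1 the expected NRK-49F signal was over 50% of the NRK-52E mean at pH 7.4, and fitted values of genes at 0 at pH 6.0 depend on the fit and are no measure of size.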

How the results depend on the processing

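RLE and upper quartile scaling lost no call of the acid response in either line. Without a filter on low counts Mfap4 lost its call in NRK-52E, and DESeq2 lost Mfap5 there and gave Eln and Tgfbi no adjusted p. No paired analysis was possible because the replicate codes are not shared between the pH values.

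The counts moved by over 1.5 times as follows. Against a log2 fold change of 1 (edgeR), 17 matrix genes fell and 0 rose in NRK-52E, where 9.60% of all genes fell and 3.79% rose. In NRK-49F 3 fell and 0 rose, where 1.03% fell and 0.961% rose. In the difference 10 were more negative and 0 more positive, where 4.78% and 1.76% of all genes were. At an unadjusted p under 0.05 the positive counts were 0, 0 and 1, and DESeq2 was not run against this fold. With the sample group as a block 2 rose in NRK-52E (25.5% of all genes). In sample group 1 alone 3 rose in NRK-52E (29.5%), in sample group 3 alone 2 rose (29.0%) and 18 fell (31.6%), and in sample group 4 alone 1 rose in NRK-49F (4.73%). Among members of at least 5 FPM, 16 fell in NRK-52E. With the line fitted alone 20 fell in NRK-49F (16.8%). The difference had 13 more negative members without A021, A022 and A033, and 13 with the NRK-49F signal subtracted. The cause of the other changes was not tested.

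Leaving out 1 sample at a time gave 0 to 1 higher and 26 to 28 lower in NRK-52E, 3 to 4 and 13 to 16 in NRK-49F, and 2 to 4 more positive and 16 to 24 more negative in the difference, with 16 without A036 and 4 without A035 or A042. The sign of the log2 fold change turned within the range -0.10 to 0.042 for Efemp2, -0.52 to 0.025 for Mfap2, -0.027 to 0.11 for Sparc and -0.061 to 0.091 for Lama5 in NRK-52E. In NRK-49F the range was -0.064 to 0.18 for Fn1 and -0.25 to 0.031 for Postn. In the difference it was -0.58 to 0.75 for Eln, -0.066 to 0.14 for Fbln1 and -0.22 to 0.59 for Mfap4.

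Signs that turned under another setting, mostly of changes near 0, were these. Efemp2 in NRK-52E was 0.0028 with RLE scaling, 0.0029 with DESeq2, 0.35 in sample group 1 and 0.052 with the line fitted alone. The value in sample group 1 passed the threshold (adjusted p = 0.00112, edgeR), and that in sample group 3 was -0.28 (adjusted p = 0.0763, edgeR). Lama5 was -0.015 with upper quartile scaling, -0.00064 with the sample group as a block and -0.050 without A021, A022 and A033. Sparc was -0.072 without those samples and -0.055 in sample group 3, and Lamb2 was 0.060 in sample group 1. Tgfbi was 0.20 without those samples and 1.04 with the signal subtracted, and Thbs2 was 0.36 with it subtracted. In NRK-49F, Eln was 3.60 with the NRK-52E signal subtracted and Fn1 was -0.024 in sample group 4. In the difference, Eln was -1.08 without A039 and A051 and -5.20 with the NRK-52E signal subtracted. Without A021, A022 and A033 it was -0.17 for Fbln1, 0.45 for Tgfbi, 0.70 for Lum and 0.67 for Has2, and with the NRK-49F signal subtracted 1.29 for Tgfbi and 0.70 for Thbs2. The settings that subtract NRK-52E signal, leave out A039 and A051 or keep members of at least 5 FPM were chosen after seeing the data. Depth limits the genes at or under 3 counts in NRK-52E at pH 6.0 (Lum, Vcan, Has2 and Lama4 among them), whose fitted values depend on the fit and are no measure of size.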
